A study of Mus musculus with 12 samples.

Results

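The 39 genes described here encode the actin cytoskeleton, the proteins that bind and tension it, and known transcriptional targets of serum response factor (SRF). They were taken from a list of gene names, and the rule used no measured value. The list itself was chosen with earlier results of these data known. All 39 had a row among the 42450 genes of the deposited table, and 37 of them passed the filter on low counts, as did 19410 genes in all, which were tested. Egr3 and Ankrd1 did not pass. The members are SRF itself, 5 actins, 14 actin filament and contractile proteins, 5 focal adhesion and LIM proteins, 5 immediate early genes, 2 genes responsive to YAP and TEAD, and 7 annexin, S100, AHNAK and nuclear lamina proteins. RNA came from wild-type E14tg2a.4, a male mouse embryonic stem cell line held without feeder cells on gelatin, in medium with serum and LIF. Cells were moved to serum-free ESGRO medium with LIF before collection. How long each library had been without serum is not stated in the sources used here. Cultures received 50 nM siRNA duplexes with Lipofectamine RNAiMAX, targeting either Srrm2 (Srrm2-KD) or, as the control, the firefly luciferase mRNA (Gl2-KD), a sequence that mouse cells do not carry. They were harvested at 24 h, or transfected again with the same duplexes and harvested at 72 h. Each of the 4 groups had 3 libraries of polyA RNA, 1 from each of 3 independent experiments, and all came from this single cell line.

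SRF is a DNA-binding factor that recognises a short A- and T-rich element, the CArG box. Its partners of the MRTF family are held by monomeric actin, so polymerisation of actin frees them to enter the nucleus and activate genes that mostly encode actin and its binding proteins. A second class of partners, the ternary complex factors such as ELK1, links SRF to ERK signalling and to immediate early genes. Embryonic stem cells grow as compact colonies with abundant cytoplasmic actin, while the smooth and striated muscle actins are hallmarks of contractile cells.

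Library totals were 73933196 to 153343831 estimated counts, and all levels below are CPM, counts scaled to a common library size with TMM factors. Srrm2, which encodes a large scaffold protein of nuclear speckles, had 442 to 962 CPM in the 6 Gl2-KD libraries and 154 to 517 CPM in the 6 Srrm2-KD libraries. It was lower in every Srrm2-KD library than in the Gl2-KD library of the same experiment and time, with 43.0% of the control level left at 24 h and 44.6% at 72 h (log2 fold changes -1.22 and -1.16, edgeR adjusted p = 0.0663 and 0.0991). Over the mean of both times the log2 fold change was -1.19 ± 0.10 (SE) (edgeR adjusted p = 0.00254). All 8 markers of mouse embryonic stem cells passed the filter and summed to 4370 to 6850 CPM, with Pou5f1 at 1149 to 1956 CPM. The first principal component took 42.0% of the variance and set the 4 libraries of experiment 1 apart from the other 8. These are bulk libraries, so fewer cells of one kind and less RNA per cell cannot be told apart in any value given here.

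The promoters of the members were read first for the element that SRF binds. RefSeq (GRCm38.p6) promoter windows, from 250 bases before to 50 bases after a start site, were on hand for 33 of the 39 members and named none of Actb, Egr3, Fosl1, Ier2, S100a10 and Tagln. A CArG box, written as CC, then 6 bases of A or T, then GG, on either strand, lay in a window of 9 of the 33 members (27.3%). The same search found it in 488 of 27025 genes (1.81%). The list was chosen to hold known SRF targets, so a share above that of all genes was built into it. The 9 members were Srf, Acta1, Actc1, Actg1, Cnn2, Myl9, Vcl, Fhl2 and Egr2. Of these, 6 sites are printed because the actin and Srf results below concern these genes, and each is given 5′ to 3′ on the strand of the gene with the CArG box in capitals.
Srf distal: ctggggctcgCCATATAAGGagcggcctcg
Srf proximal: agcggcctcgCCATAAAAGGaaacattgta
Acta1: tgcccgacacCCAAATATGGcttgggaagg
Actc1: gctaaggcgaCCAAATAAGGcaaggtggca
Actg1: ggaaagatcgCCATATATGGacatgttctg
Cnn2: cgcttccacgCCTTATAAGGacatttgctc
The Acta1 site began 73 bases before the start, that of Actc1 47, that of Actg1 90, and that of Cnn2 56. Srf held both of its sites within one window, at 82 and 62 bases before its own start. Their positions were Srf distal chr17:46556235-46556244 (minus strand), Srf proximal chr17:46556215-46556224 (minus strand), Acta1 chr8:123894839-123894848 (minus strand), Actc1 chr2:114052913-114052922 (minus strand), Actg1 chr11:120348576-120348585 (minus strand) and Cnn2 chr10:79988544-79988553 (plus strand). The hexamer GGAATG, the core of TEAD sites, lay on either strand in a window of 14 of the 33 members (42.4%), against 16.6% of genes, and Acta1, Vcl and Egr2 held it beside a CArG box. The AP-1 motif TGANTCA lay in windows of 5 members (15.2%), against 8.97% of genes, and none of the 5 had a CArG box. A match is a description of these letters only, and no binding was measured.

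**Figure D1:**
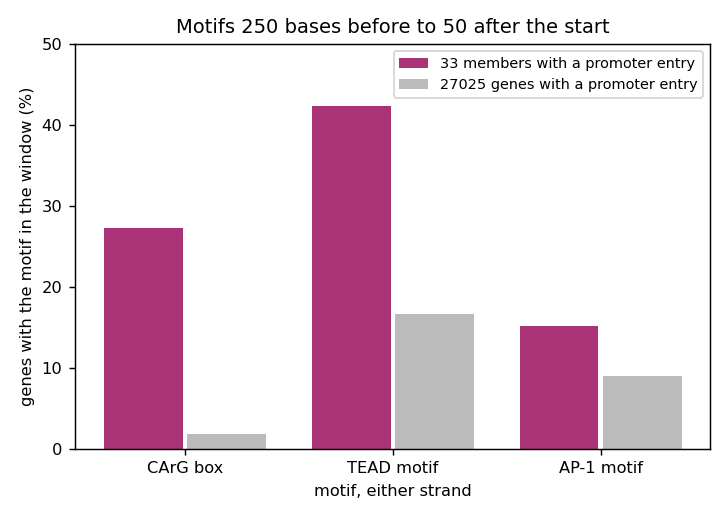
Share of genes (percent, vertical axis) whose promoter window holds each motif, for the 33 members with a window (purple) and for all 27025 genes with one (grey). The CArG box stood at 27.3% against 1.81%, the TEAD motif at 42.4% against 16.6%, and the AP-1 motif at 15.2% against 8.97%. Known SRF targets are among the members by choice.

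The levels of the members spanned from the most abundant cytoskeletal mRNAs to transcripts near the detection limit. Per kilobase of exon, which allows genes to be compared, Actb averaged 790 and Actg1 338 CPM per kb over the 12 libraries, and the third gene in this order, Cnn3, 112. A middle group of 15 genes, from S100a11 to Srf, lay between 11.4 and 107 CPM per kb. Srf was the 18th of the 39, at 8.85 to 18.4 CPM per kb, and its range overlapped those of its neighbours Tln1 and Amotl2. Acta1 and Acta2 averaged 1.13 and 0.923 CPM per kb with overlapping ranges, and Actc1 0.174. Ankrd1 had at most 14 counts and Egr3 at most 2 counts in any library, and neither is counted further.

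Several members separated experiment 1 from the others, whatever the siRNA and time. In experiment 1 all 4 libraries lay below the other 8 for 9 of the 37 members (24.3%), beside 13.7% of all genes tested. These were Acta1, Acta2, Tagln, Cnn1, Cnn2, Myl9, Tpm1, Tpm2 and Fhl2, of which Acta1, Acta2, Tagln, Cnn1 and Myl9 are best known from muscle. All 4 libraries of experiment 1 lay above the other 8 for 6 members (16.2%), near the 16.7% of all genes. They were Flna, Actn1, Actn4, Tln1, Vcl and Ahnak. These 6 had 5533 (Actn1) to 19938 (Ahnak) bases of exon, and the 9 lower members 1162 (Myl9) to 6485 (Tpm1). Other long members, such as Myh9, Flnc and Ahnak2 with 12928, 9402 and 14163 bases, were in neither group. Myh9 still had its highest mean in experiment 1, with 297, 229 and 267 CPM in experiments 1, 2 and 3. The means were 10.67, 10.61 and 11.85 CPM for Flnc and 18.99, 12.85 and 30.96 CPM for Ahnak2. The part of transcript length or RNA quality was not tested. In experiment 2 only Amotl2 lay wholly below the others (1.5% of all genes) and no member wholly above (1.45%). In experiment 3 Amotl2, Cnn3 and Tpm2 lay wholly above (3.78% of all genes) and no member wholly below (2.7%). Each experiment is a single unit, so these are descriptions and were not tested.

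**Figure D2:**
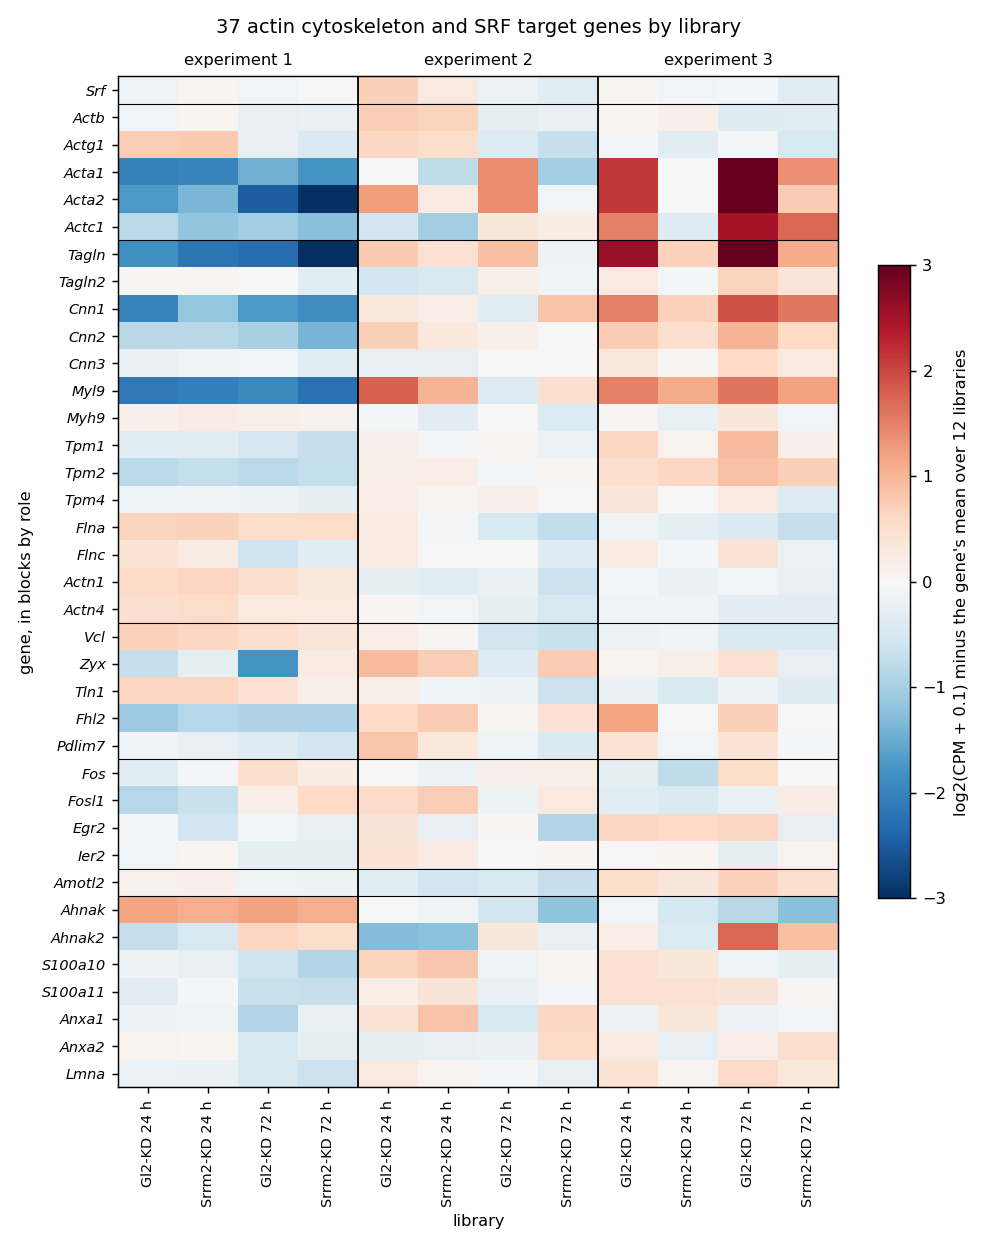
Level of each of the 37 members (rows, in blocks by role) in each of the 12 libraries (columns, in blocks by experiment), as log2(CPM + 0.1) minus the mean of the gene over the 12 libraries. Acta1, Acta2, Tagln, Cnn1 and Myl9 were low in the 4 libraries of experiment 1, and Acta1, Acta2 and Tagln were highest in Gl2-KD at 72 h of experiment 3.

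Markers of other cells moved with the experiments as well. The 10 fibroblast markers summed to 7.03 to 10.2 CPM in experiment 1, 13.1 to 14.7 in experiment 2 and 19.1 to 28.7 in experiment 3, most of it from Thy1. Of the 10, 6 passed the filter, while Dcn and Lum stayed at or below 0.0493 CPM. The 5 smooth muscle markers summed to 8.71 to 11.3, 10.2 to 27.0 and 16.4 to 45.6 CPM, of which Des, a muscle intermediate filament gene, gave 7.38 to 44.0 CPM, and Myh11 and Myocd stayed at or below 0.183 CPM. The 7 trophoblast markers summed to 84.5 to 114, 91.8 to 157 and 116 to 242 CPM. Most of the sum in experiment 1 was Tfap2c, at 71.4 to 95.0 CPM there. Krt18 was at 3.66 to 4.98 CPM in experiment 1 and 29.4 to 77.4 CPM in experiment 3. Eomes was at 1.96 to 5.79 CPM, Elf5 at or below 0.451 CPM and Cdx2 at or below 0.209 CPM. Of these markers edgeR called Krt7, a keratin gene, higher at 72 h with either siRNA. At 72 h the fibroblast sum was 7.55 to 28.7 CPM in Gl2-KD and 7.03 to 27.8 CPM in Srrm2-KD, and the smooth muscle sum 11.3 to 45.6 and 9.37 to 31 CPM. Thy1 dominates the fibroblast sum, which hides the others. Of the 6 fibroblast markers tested, 4 were lower in Srrm2-KD at 72 h and 2 higher, with a median log2 fold change of -0.45. Only Col1a1 had an unadjusted p below 0.05. It was at 0.188, 0.835 and 0.982 CPM in Gl2-KD at 72 h and 0.218, 0.0792 and 0.0682 CPM in Srrm2-KD, in experiments 1, 2 and 3. At the same time the trophoblast sum was 114 to 242 CPM in Gl2-KD and 84.5 to 159 CPM in Srrm2-KD, and the endoderm sum 158 to 292 and 131 to 212 CPM. Of each of these lists 2 genes were lower in Srrm2-KD at an unadjusted p below 0.05, beside 7.86% of all genes. Of each 0 were called by edgeR, beside 0% of all genes. Fitted values were lower for 4 and higher for 3 trophoblast markers, and lower for 5 and higher for 4 endoderm markers. Of the 8 stem cell markers 7 were lower and 1 higher, with 3 lower at an unadjusted p below 0.05. Their median log2 fold change was -0.22. The 2 trophoblast genes at that threshold were Tfap2c and Krt8. In experiment 3 at 72 h Tfap2c was at 85.8 CPM in Gl2-KD and 69.2 CPM in Srrm2-KD, and Krt8 at 57.2 and 22.6 CPM. There Krt7 was at 18.6 and 16.9 CPM, and Eomes at 2.41 and 3.23 CPM. The 9 endoderm markers were at 131 to 311 CPM, of which Lamb1 and Sparc were the most, and the 5 mesoderm markers at 1.97 to 4.52 CPM. The part of such cells in the results below was not tested.

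In edgeR no member was called for the Srrm2 knockdown, while DESeq2 called Acta1 and Tagln at 72 h. At 24 h and at 72 h edgeR called 0 of all genes, Srrm2 included, so its 0 does not single out the members. At 24 h edgeR's quasi-likelihood test, with p adjusted by Benjamini-Hochberg over 19410 genes, called 0 of the 37 members at an adjusted p below 0.05 (0% of all genes). DESeq2 and limma-voom also called 0 members, beside 0.129% and 0.0103% of all genes, and at an unadjusted p below 0.05 Actc1 was the 1 member, beside 2.62% of all genes. At 72 h edgeR called 0 members (0% of all genes), limma-voom 0 (0.0206%), and DESeq2 2, Acta1 and Tagln (3.38%). For the mean of both times edgeR called 0 members (0.067% of all genes), limma-voom 0 (0.474%), and DESeq2 3, Acta1, Tagln and Anxa1 (4.68%). The difference of the effect between 72 h and 24 h called 0 members in edgeR (0% of all genes), 0 in DESeq2 (0.0103%) and 0 in limma-voom (0%), with 0 members at an unadjusted p below 0.05 (1.64% of all genes).

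Most fitted values of the knockdown were below 0 at both times. Because the list was chosen with earlier results of these data known, the shares in this paragraph are descriptions only. The log2 fold change was below 0 for 29 of 37 members at 24 h, beside 48.7% of all genes, and for 30 of 37 at 72 h, beside 52.1%. The median over the members was -0.13 at 24 h and -0.22 at 72 h, and over all genes tested 0.01 and -0.02. At 72 h every experiment gave a lower Srrm2-KD value for 21 members (56.8%), beside 23.1% of all genes, and 5 were higher in all 3 (Actb, Ier2, Fosl1, Anxa1 and Anxa2), beside 18.8%. At 24 h 8 members were lower in all 3 experiments (15.4% of all genes), and Anxa1 and Tpm2 were higher in all 3 (17.3%). Without experiment 3 the members below 0 at 72 h were 26 of 37 with a median of -0.14, without experiment 1 28 with -0.25, and without experiment 2 30 with -0.25. At 24 h they were 32 with a median of -0.25 without experiment 1, 27 with -0.10 without experiment 2 and 24 with -0.07 without experiment 3. Leaving out the single Srrm2-KD library of experiment 3 at 24 h gave 19 of 37 with a median of -0.03.

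At an unadjusted p below 0.05, 10 members were lower in Srrm2-KD at 72 h, beside 7.86% of all genes tested. They were the muscle-type genes Acta1, Acta2 and Tagln, the filament proteins Tpm1, Tpm4, Cnn2, Actn1 and Myh9, the adhesion protein Tln1, and Ahnak2. Anxa1 was the 1 member higher, beside 5.01% of all genes. Over the mean of both times 12 were lower, the same 10 with Actc1 and Pdlim7, beside 7.85% of all genes, and Anxa1 was higher, beside 5.72%. None of these members passed the adjustment in edgeR. When each pair of libraries from 1 experiment and 1 time was given its own block, edgeR called 3 members at 72 h, Acta1, Acta2 and Tagln, beside 724 of 19410 genes, and 7 for the mean, beside 1124. With the 72 h libraries alone it called the same 3, beside 323 of 18156 genes.

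**Figure D3:**
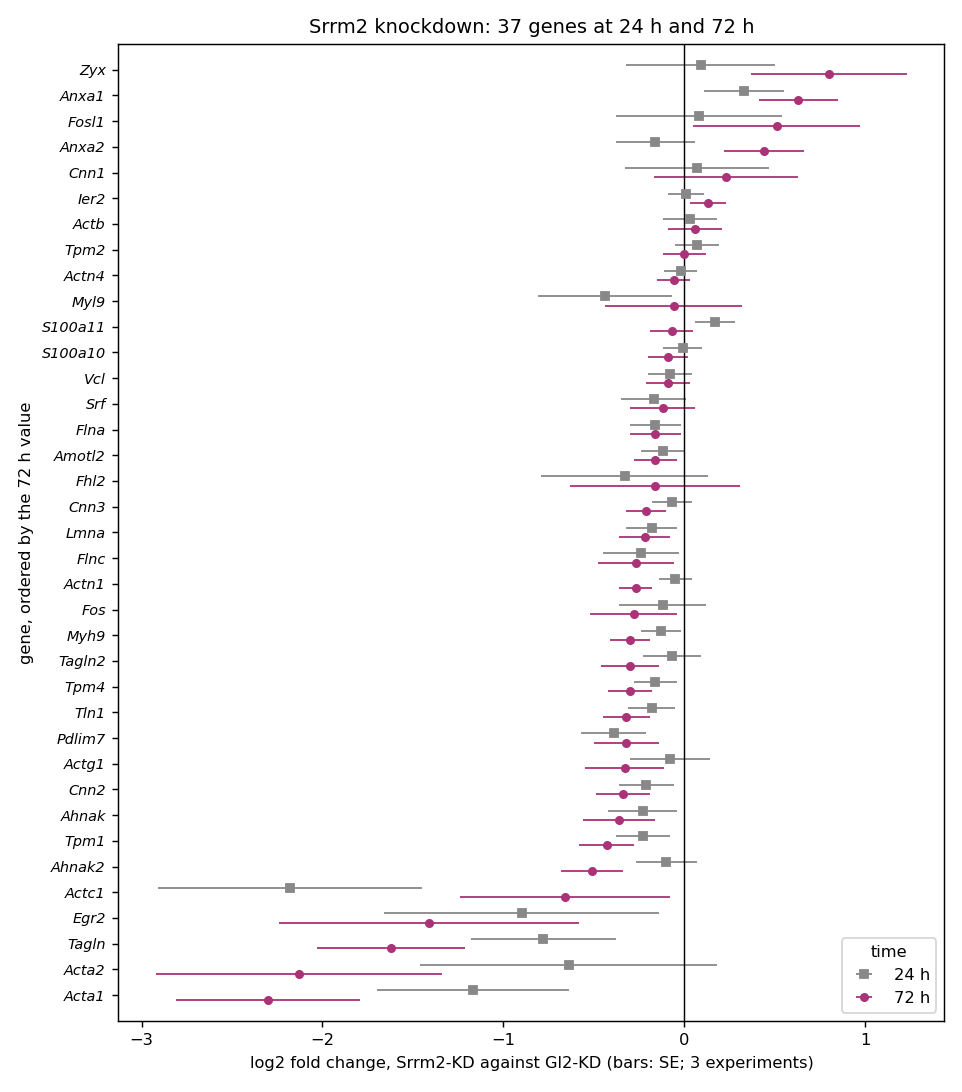
Log2 fold change of Srrm2-KD against Gl2-KD (horizontal axis) for each of the 37 members, at 24 h (grey squares) and at 72 h (purple circles). Bars are 1 SE of the edgeR fit over all 12 libraries of the 3 experiments, and not the spread between experiments. At 72 h 30 of 37 values were below 0, the lowest being Acta1 at -2.30, Acta2 at -2.13 and Tagln at -1.62.

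In the main edgeR fit more members were called with time than with knockdown, and the same held for all genes. It called 282 genes with time in Gl2-KD and 107 in Srrm2-KD. For the knockdown it called 0 at either time and 13 for the mean. The comparison of 72 h with 24 h covers longer culture, a further round of transfection and any difference in time since serum was withdrawn. These cannot be told apart here. The comparison also shares its Gl2-KD libraries with the knockdown comparisons above. In Gl2-KD edgeR called 2 members, Ahnak2 and S100a10, beside 1.45% of all genes tested, and DESeq2 called 5, those 2 with Actb, Acta1 and Vcl, beside 8.16%. In Srrm2-KD edgeR called Ahnak2 and S100a10 as well, beside 0.551% of all genes, and DESeq2 called 4, those 2 with Actb and S100a11, beside 6.62%. At an unadjusted p below 0.05, 10 members were lower at 72 h in Gl2-KD (7.21% of all genes) and 4 were higher (9.59%). In Srrm2-KD 10 members were lower (8.54% of all genes) and 2 were higher (7.72%). Actb, Actg1, Actn4, Flna, Vcl, Ahnak and S100a10 were among the lower members in both. Without the experiment as a block, edgeR called 0 members and 0 of all genes in either comparison.

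Srf was expressed at a similar level in most libraries. Gl2-KD cells had 30.1, 53.4 and 33.4 CPM at 24 h in experiments 1, 2 and 3, and 30.5, 29.2 and 31.1 CPM at 72 h. Srrm2-KD cells had 33.7, 38.8 and 30.5 CPM at 24 h and 31.8, 25.6 and 26.0 CPM at 72 h. The Gl2-KD library of experiment 2 at 24 h was the highest, the other 11 lay between 25.6 and 38.8 CPM, and the groups overlapped at both times. The log2 fold change of the knockdown was -0.17 ± 0.18 (SE) at 24 h and -0.12 ± 0.18 (SE) at 72 h (edgeR adjusted p = 1 and 0.813), and without experiment 2 the 24 h value was 0.01. With time it was -0.34 ± 0.18 (SE) in Gl2-KD and -0.29 ± 0.18 (SE) in Srrm2-KD (edgeR adjusted p = 0.373 and 0.458).

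Actb encodes β-actin, the main cytoplasmic actin. Its levels in experiments 1, 2 and 3 were 1948, 3418 and 2180 CPM in Gl2-KD at 24 h and 1721, 1662 and 1599 CPM at 72 h. In Srrm2-KD they were 2118, 3269 and 2259 CPM at 24 h and 1796, 1775 and 1636 CPM at 72 h. Every 72 h library was below every 24 h library, and within a time the siRNA groups overlapped. The log2 fold change with time was -0.56 ± 0.15 (SE) in Gl2-KD and -0.52 ± 0.15 (SE) in Srrm2-KD (edgeR adjusted p = 0.0974 and 0.135), and that of the knockdown was 0.03 ± 0.15 (SE) at 24 h and 0.06 ± 0.15 (SE) at 72 h (edgeR adjusted p = 1 and 0.898). The 72 h level was 48.6% of the 24 h level in Gl2-KD and 54.3% in Srrm2-KD in experiment 2, and 88.4% and 84.8% in experiment 1.

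Actg1 encodes γ-actin, the other cytoplasmic form, whose promoter holds the CArG box printed above. It had 1400, 1296 and 816 CPM in Gl2-KD at 24 h and 719.6, 635 and 818 CPM at 72 h, in experiments 1, 2 and 3. Srrm2-KD cells had 1463, 1221 and 677 CPM at 24 h and 626, 521 and 602 CPM at 72 h. Experiments 1 and 2 were lower at 72 h with either siRNA, while in experiment 3 the Gl2-KD level at 72 h was 100% of that at 24 h. The log2 fold change with time was -0.65 ± 0.23 (SE) in Gl2-KD and -0.90 ± 0.23 (SE) in Srrm2-KD (edgeR adjusted p = 0.173 and 0.104). Without experiment 3 Actg1 was called in both, at -1.0 ± 0.10 (SE) and -1.23 ± 0.10 (SE) (edgeR adjusted p = 0.0152 and 0.0194). For the knockdown it was -0.08 ± 0.22 (SE) at 24 h and -0.33 ± 0.22 (SE) at 72 h, where Srrm2-KD was at 87.0%, 82.0% and 73.6% of Gl2-KD in the 3 experiments (edgeR adjusted p = 1 and 0.576). Of the 31-base words in its transcripts, 40.2% recur in other genes, mostly pseudogenes, and 23.6% of those of Actb, so part of these estimated counts could have been shared out between copies. Actb held 58.2% to 77.3% of the sum of both cytoplasmic actins.

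The muscle-type actins were far less abundant and varied widely between experiments. Acta1, the skeletal muscle α-actin, had 0.0686, 0.585 and 2.88 CPM in Gl2-KD at 24 h and 0.155, 1.71 and 12.4 CPM at 72 h, in experiments 1, 2 and 3. Srrm2-KD cells had 0.0739, 0.306 and 0.582 CPM at 24 h and 0.0997, 0.238 and 1.69 CPM at 72 h. The library of Gl2-KD at 72 h in experiment 3 stood far above all others, and the siRNA groups overlapped, with experiment 1 near 0 in each. Within an experiment, Srrm2-KD at 72 h was at 64.3%, 13.9% and 13.6% of Gl2-KD, with only 16 and 19 counts behind the first of these. The log2 fold change of the knockdown at 72 h was -2.30 ± 0.51 (SE) (edgeR adjusted p = 0.144), and DESeq2 gave an adjusted p of 0.000744. Without experiment 3 the log2 fold change was -1.82, and without the highest library alone it was -1.70 (edgeR adjusted p = 0.453 and 0.465). At 24 h it was -1.17 ± 0.53 (SE) (edgeR adjusted p = 1), and -0.55 without experiment 3. In Gl2-KD Acta1 was higher at 72 h in all 3 experiments, by 1.69 ± 0.49 (SE) on the log2 scale (edgeR adjusted p = 0.112).

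Acta2, the smooth muscle α-actin, was also lowest in experiment 1 in every group. Its levels were 0.217, 2.39 and 4.41 CPM in Gl2-KD at 24 h, 0.0897, 2.66 and 9.57 CPM at 72 h, 0.302, 1.17 and 0.952 CPM in Srrm2-KD at 24 h and 0, 0.884 and 1.68 CPM at 72 h. The 0 in Srrm2-KD at 72 h of experiment 1 rests on 0 counts, where 3 counts would have been 0.0187 CPM, and this floor covers counting error only. In experiments 2 and 3 Srrm2-KD at 72 h was at 33.3% and 17.5% of Gl2-KD. For Acta2 the log2 fold change of the knockdown was -0.64 ± 0.82 (SE) at 24 h and -2.13 ± 0.79 (SE) at 72 h (edgeR adjusted p = 1 and 0.300). The 24 h value was -1.52 without experiment 1, -0.31 without experiment 2 and -0.08 without experiment 3, and the 72 h value -2.13, -2.52 and -1.82.

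Actc1, the cardiac α-actin, was the rarest actin. It had 0.0457, 0.0713 and 0.621 CPM in Gl2-KD at 24 h and 0.0245, 0.222 and 1.33 CPM at 72 h, and 0.0123, 0.0242 and 0.0952 CPM in Srrm2-KD at 24 h and 0.00623, 0.198 and 0.737 CPM at 72 h. No library held more than 175 counts of it, and those of experiment 1 held 1 to 4. At 24 h the Srrm2-KD levels were 27.0%, 33.9% and 15.3% of Gl2-KD in experiments 1, 2 and 3, with a log2 fold change of -2.18 ± 0.73 (SE) (unadjusted p = 0.0123, edgeR adjusted p = 1). At 72 h the log2 fold change was -0.66 ± 0.58 (SE) (edgeR adjusted p = 0.671), and the difference between the times was 1.52 ± 0.92 (SE) (edgeR adjusted p = 1).

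Tagln encodes transgelin, an actin-binding protein of smooth muscle and a classical SRF target. It had 0.857, 5.79 and 20.6 CPM in Gl2-KD at 24 h and 0.603, 6.32 and 33.2 CPM at 72 h, in experiments 1, 2 and 3. Srrm2-KD cells had 0.659, 4.59 and 5.42 CPM at 24 h and 0.224, 2.97 and 7.35 CPM at 72 h. Tagln was lower with Srrm2 siRNA in each of the 6 pairs, and the pairs of experiment 3 differed most. Srrm2-KD was at 76.9%, 79.2% and 26.3% of Gl2-KD at 24 h, and at 37.2%, 47.0% and 22.1% at 72 h. In edgeR the log2 fold change was -0.78 ± 0.40 (SE) at 24 h and -1.62 ± 0.41 (SE) at 72 h (edgeR adjusted p = 1 and 0.157), and DESeq2 gave an adjusted p of 0.00188 at 72 h. Without experiment 3 the 72 h value was -1.22 and the 24 h value -0.36 (edgeR adjusted p = 0.355 and 1). Of the words in its transcripts, 62.2% recur in Gm48529 or Pcsk7, and Pcsk7 itself was at 0 to 4.19 CPM with a log2 fold change of 2.02 ± 1.41 (SE) at 72 h.

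**Figure D4:**
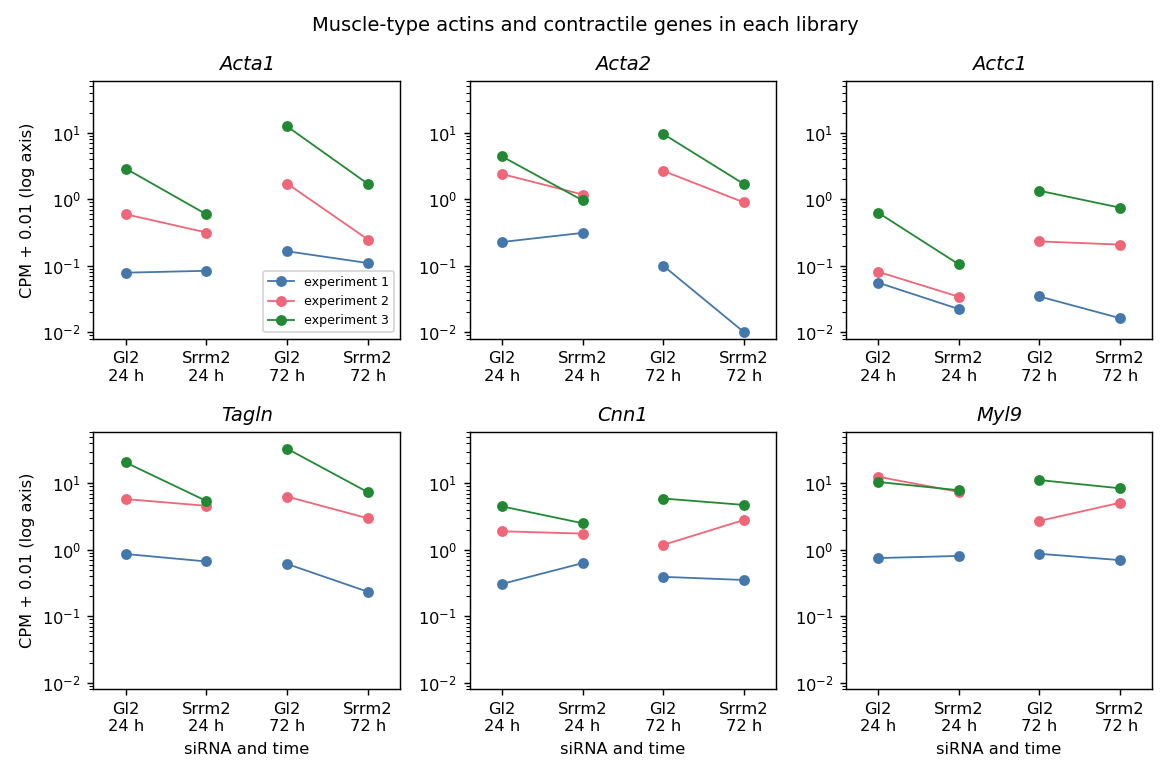
CPM + 0.01 on a log axis for 6 muscle-type members in each of the 12 libraries, with lines joining the Gl2-KD and Srrm2-KD libraries of the same experiment and time (blue experiment 1, red experiment 2, green experiment 3). In every group, experiment 1 was the lowest of the 3 for each gene. Acta1 in experiment 3 at 72 h was 12.4 CPM in Gl2-KD and 1.69 CPM in Srrm2-KD.

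Cnn1 and Myl9, which encode calponin and a regulatory myosin light chain of smooth muscle, were also lowest in experiment 1, and their knockdown values differed in direction between experiments. Cnn1 ranged from 0.297 to 5.92 CPM and Myl9 from 0.691 to 12.6 CPM, and their log2 fold changes at 72 h were 0.23 ± 0.40 (SE) and -0.06 ± 0.38 (SE) (edgeR adjusted p = 0.844 and 0.963). At 72 h Srrm2-KD was at 89.4%, 238% and 80.0% of Gl2-KD for Cnn1 and at 80.0%, 188% and 75.1% for Myl9, so that experiment 2 went the opposite way to the others, and without it the values were -0.28 and -0.38. At 24 h the log2 fold changes were 0.07 ± 0.40 (SE) and -0.44 ± 0.37 (SE) (edgeR adjusted p = 1 each), and without experiment 1 -0.45 and -0.63. Summed over Acta1, Acta2, Actc1, Tagln, Cnn1 and Myl9, a sum chosen after the values were seen, Gl2-KD and Srrm2-KD at 72 h had 2.12 and 1.36 CPM in experiment 1, 14.8 and 12.2 CPM in experiment 2 and 73.7 and 24.6 CPM in experiment 3. Experiment 3 held the widest gap, and it was also the experiment with the highest sums of fibroblast, smooth muscle and trophoblast markers, whose part in it was not tested.

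The other filament proteins were abundant and shifted by small amounts. Tropomyosins run along the actin filament, and Tpm1 had 79.7, 118 and 220.2 CPM in Gl2-KD at 72 h and 70.1, 99.8 and 127 CPM in Srrm2-KD at 72 h, in experiments 1, 2 and 3. At 24 h the values were 91.5, 126 and 174 CPM and 90.2, 111 and 121 CPM. Tpm1 was lower with Srrm2 siRNA in all 6 pairs, and the groups overlapped. Its log2 fold change was -0.23 ± 0.15 (SE) at 24 h and -0.43 ± 0.15 (SE) at 72 h (edgeR adjusted p = 1 and 0.289). For Tpm4 and Tpm2 it was -0.30 ± 0.12 (SE) and 0.00 ± 0.12 (SE) at 72 h (edgeR adjusted p = 0.321 and 0.995).

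Actn1 encodes α-actinin, which cross-links actin filaments. It had 276, 155 and 178 CPM in Gl2-KD at 24 h and 266, 163 and 176 CPM at 72 h. In Srrm2-KD it had 289.5, 147 and 162 CPM at 24 h and 230.0, 118 and 157 CPM at 72 h. In every group experiment 1 was above the others, and within each experiment the 72 h value was lower with Srrm2 siRNA. Its log2 fold change was -0.05 ± 0.09 (SE) at 24 h and -0.27 ± 0.09 (SE) at 72 h (edgeR adjusted p = 1 and 0.262), and the difference between the times was -0.23 ± 0.13 (SE) (edgeR adjusted p = 1). Its paralogue Actn4, at 292 to 588 CPM, gave -0.06 ± 0.09 (SE) at 72 h (edgeR adjusted p = 0.827).

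Of the 14 filament and contractile genes, 13 had a log2 fold change below 0 for the knockdown at 72 h and 12 at 24 h, with medians of -0.27 and -0.15. Myh9, the heavy chain of a non-muscle myosin, gave -0.30 ± 0.11 (SE) and Cnn2, a calponin with a CArG box in its window, -0.34 ± 0.15 (SE) at 72 h (edgeR adjusted p = 0.317 and 0.376). The filamins Flna, at 346 to 932 CPM, and Flnc, at 7.0 to 14.5 CPM, gave -0.16 ± 0.14 (SE) and -0.27 ± 0.21 (SE). Tagln2, at 89.6 to 209 CPM, gave -0.30 ± 0.16 (SE), and Cnn3, at 262 to 509 CPM, -0.21 ± 0.11 (SE). These 4 had edgeR adjusted p of 0.469 to 0.667.

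Among the focal adhesion and LIM genes 4 of 5 had a knockdown value below 0 at either time. Pdlim7, a PDZ and LIM protein of actin bundles, had 29.2, 56.4 and 42.1 CPM in Gl2-KD and 26.4, 39.5 and 30.0 CPM in Srrm2-KD at 24 h. At 72 h it had 24.1, 29.0 and 42.0 CPM and 21.3, 23.4 and 30.4 CPM. Each of the 6 pairs was lower with Srrm2 siRNA, while the groups overlapped. In edgeR the log2 fold change was -0.39 ± 0.18 (SE) at 24 h and -0.32 ± 0.18 (SE) at 72 h (edgeR adjusted p = 1 and 0.500).

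Vcl encodes vinculin, which links integrin adhesions to actin, and its window holds a CArG box. It had 167, 117 and 91.5 CPM in Gl2-KD at 24 h and 147, 70.0 and 75.8 CPM at 72 h. In Srrm2-KD it had 159, 105 and 93.4 CPM and 132, 64.2 and 75.6 CPM. All 6 pairs were lower at 72 h than at 24 h, by a log2 fold change of -0.40 ± 0.12 (SE) in Gl2-KD and -0.42 ± 0.12 (SE) in Srrm2-KD (edgeR adjusted p = 0.131 and 0.140). Knockdown gave -0.09 ± 0.12 (SE) at 72 h (edgeR adjusted p = 0.798). Tln1, the integrin activator talin, gave -0.32 ± 0.13 (SE), and Zyx, which senses strain on actin, 0.80 ± 0.43 (SE) from levels of only 0.873 to 6.23 CPM (edgeR adjusted p = 0.337 and 0.474). The experiments went opposite ways for Zyx, with Srrm2-KD at 444%, 224% and 61.2% of Gl2-KD. Its 72 h value was 0.13 without experiment 1, 0.63 without experiment 2 and 1.68 without experiment 3 (edgeR adjusted p = 0.902, 0.953 and 0.331). Fhl2, a LIM cofactor, was at or below 0.712 CPM in every library.

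The immediate early genes showed no shared direction. Ier2, the most abundant, lay at 96.2 to 158 CPM and gave 0.13 ± 0.10 (SE) for the knockdown at 72 h (edgeR adjusted p = 0.619). Fos, a subunit of AP-1, lay at 1.11 to 2.89 CPM, and Fosl1 at 0.194 to 0.781 CPM, of whose words 54.5% recur in Ccdc85b. Egr2 lay at or below 0.183 CPM, with 0 counts in Srrm2-KD at 72 h of experiment 2. For the knockdown at 72 h Fos gave -0.28 ± 0.24 (SE), Fosl1 0.51 ± 0.46 (SE) and Egr2 -1.41 ± 0.83 (SE) (edgeR adjusted p = 0.663, 0.680 and 0.511). Fos was higher at 72 h than at 24 h in all 3 experiments with either siRNA, by 0.63 ± 0.24 (SE) in Gl2-KD and 0.47 ± 0.24 (SE) in Srrm2-KD (edgeR adjusted p = 0.210 and 0.362). Of the 2 genes responsive to YAP and TEAD, Amotl2, an angiomotin, lay at 36.3 to 95.8 CPM and gave -0.16 ± 0.12 (SE) for the knockdown at 72 h (edgeR adjusted p = 0.602).

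Ahnak2 gave the clearest change with time. It encodes a very large scaffold protein related to AHNAK. In Gl2-KD it had 10.7, 7.01 and 20.2 CPM at 24 h and 27.6, 22.2 and 57.5 CPM at 72 h, in experiments 1, 2 and 3. In Srrm2-KD it had 12.5, 7.35 and 13.2 CPM at 24 h and 25.2, 14.9 and 32.9 CPM at 72 h. The 72 h libraries were all above the 24 h libraries with the same siRNA. Ahnak2 rose by 1.52 ± 0.17 (SE) on the log2 scale in Gl2-KD (edgeR adjusted p = 0.0112) and by 1.10 ± 0.17 (SE) in Srrm2-KD (edgeR adjusted p = 0.0377), in 3 of 3 experiments each. Under the Srrm2 siRNA the value at 72 h was 91.3%, 67.1% and 57.2% of Gl2-KD, a log2 fold change of -0.51 ± 0.17 (SE) (edgeR adjusted p = 0.263). The difference of the knockdown effect between 72 h and 24 h, which equals that between the 2 changes with time, was -0.41 ± 0.24 (SE) (edgeR adjusted p = 1). None of its 31-base words recurs in another gene. Without experiment 2 both calls were lost, with log2 fold changes of 1.43 and 1.11 (edgeR adjusted p = 0.501 and 0.739), and without experiment 3 the second was 1.01 (edgeR adjusted p = 0.0523).

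S100a10, also called p11, binds annexin A2 and AHNAK at the membrane. It had 57.1, 99.6 and 86.0 CPM in Gl2-KD at 24 h and 41.4, 57.5 and 58.8 CPM at 72 h. In Srrm2-KD it had 54.1, 109.9 and 80.2 CPM at 24 h and 34.3, 65.8 and 52.3 CPM at 72 h. Experiment 1 was the lowest in every group, and each experiment was lower at 72 h. S100a10 fell with time by 0.59 ± 0.11 (SE) on the log2 scale in Gl2-KD and by 0.67 ± 0.11 (SE) in Srrm2-KD (edgeR adjusted p = 0.0301 and 0.0415), in 3 of 3 experiments each. Both calls were lost without any 1 of the experiments, at log2 fold changes of -0.67, -0.52 and -0.62 in Gl2-KD without experiment 1, 2 and 3 (edgeR adjusted p = 0.0525, 0.521 and 0.124). In Srrm2-KD they were -0.68, -0.67 and -0.70 (edgeR adjusted p = 0.0671, 0.653 and 0.0844). The knockdown gave -0.01 ± 0.11 (SE) at 24 h and -0.09 ± 0.11 (SE) at 72 h (edgeR adjusted p = 1 and 0.775).

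S100a11, a calcium-binding protein whose gene lies near S100a10 on chromosome 3, had 41.3, 60.5 and 72.7 CPM in Gl2-KD at 24 h and 33.2, 46.2 and 69.3 CPM at 72 h. In Srrm2-KD it had 51.5, 68.7 and 72.0 CPM and 32.4, 51.2 and 56.0 CPM. It was lower at 72 h in all 6 pairs, with log2 fold changes of -0.25 ± 0.12 (SE) in Gl2-KD and -0.49 ± 0.12 (SE) in Srrm2-KD (edgeR adjusted p = 0.300 and 0.0887). Of its words 48.9% recur in other genes, mainly pseudogenes.

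Of the annexins, both lay above 0 at 72 h, where most members lay below. Anxa1, a calcium-dependent membrane-binding protein, had 3.67, 5.44 and 3.67 CPM in Gl2-KD and 3.70, 7.505 and 5.22 CPM in Srrm2-KD at 24 h. At 72 h it had 2.16, 2.89 and 3.59 CPM and 3.56, 6.27 and 3.85 CPM. In all 6 pairs the level was higher with Srrm2 siRNA, at 101% to 217% of Gl2-KD, and the groups overlapped at both times. Its log2 fold change was 0.33 ± 0.22 (SE) at 24 h and 0.63 ± 0.22 (SE) at 72 h (edgeR adjusted p = 1 and 0.282). Over the mean of both times it was 0.48 ± 0.15 (SE) (edgeR adjusted p = 0.214, DESeq2 adjusted p = 0.0432).

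Anxa2, the partner of S100a10, had 22.9, 17.6 and 25.7 CPM in Gl2-KD and 22.2, 18.1 and 18 CPM in Srrm2-KD at 24 h. At 72 h it had 15.5, 18.7 and 24.8 CPM and 17.5, 31.7 and 30.6 CPM. The Srrm2-KD library was the higher one in each experiment at 72 h, and only in experiment 2 at 24 h. In edgeR the log2 fold change was -0.16 ± 0.22 (SE) at 24 h and 0.44 ± 0.22 (SE) at 72 h (edgeR adjusted p = 1 and 0.441), and the difference between the times was 0.60 ± 0.31 (SE) (edgeR adjusted p = 1). Ahnak, at 24.3 to 133 CPM, gave -0.36 ± 0.20 (SE) at 72 h, and Lmna, which encodes the A-type lamins of the nuclear envelope, -0.22 ± 0.14 (SE) (edgeR adjusted p = 0.479 and 0.554). With time Ahnak gave -0.44 ± 0.20 (SE) in Gl2-KD and -0.57 ± 0.20 (SE) in Srrm2-KD (edgeR adjusted p = 0.290 and 0.192), and without experiment 1 it was called in both, at -0.65 and -0.90 (edgeR adjusted p = 0.0471 and 0.0396).

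**Figure D5:**
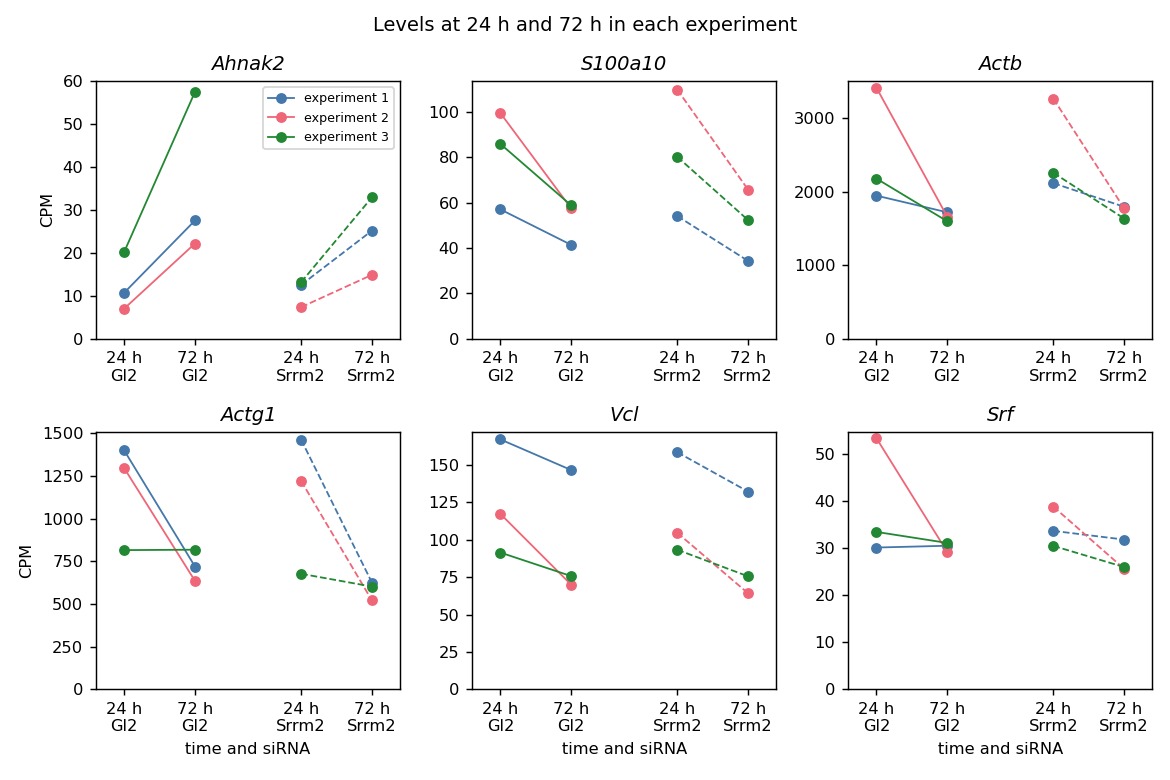
CPM at 24 h and 72 h for 6 members, with lines joining libraries of the same experiment and siRNA (solid Gl2-KD, dashed Srrm2-KD, colours by experiment). Ahnak2 was higher and S100a10 lower at 72 h in all 6 pairs. Actb was lower at 72 h in all 6 pairs and Srf in 5 of 6.

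Knockdown values were set beside the CArG boxes as a description. The 9 members with a site all had log2 fold changes below 0 at both times, with medians of -0.33 at 24 h and -0.33 at 72 h. Of the 23 tested members whose windows lacked one, 18 were below 0 at either time, with medians of -0.12 and -0.27. At 72 h the values of members with a site ran from -2.30 for Acta1 to -0.06 for Myl9. Those without an exact match in the window ran from -2.13 for Acta2 to 0.80 for Zyx. A CArG box with another base in its core, or outside the window, would have been missed. The 2 groups therefore do not separate genes with SRF sites from genes without them.

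Genes around the members were read from further lists. Of 28 further SRF targets, all tested, edgeR called 0 for the knockdown at either time, with medians of -0.17 at 24 h and -0.19 at 72 h beside 0.01 and -0.02 over all genes. Of 12 genes of YAP, TAZ and TEAD it also called 0, with medians of -0.13 and -0.31. It called 0% of all genes at either time, so these counts of 0 do not set the lists apart. At 72 h 9 of the further SRF targets were lower and 3 higher at an unadjusted p below 0.05. Of the YAP, TAZ and TEAD genes 7 were lower and 0 higher. All genes gave 7.86% lower and 5.01% higher. These lists too were chosen with earlier results known. The SRF cofactor genes Mrtfa, at 8.28 to 11.3 CPM, and Mrtfb, at 11.3 to 31.9 CPM, gave log2 fold changes of 0.21 ± 0.15 (SE) and -0.17 ± 0.10 (SE) at 72 h (edgeR adjusted p = 0.582 and 0.524). With time, Ajuba, a LIM protein that restrains the Hippo kinases, fell by 0.75 ± 0.13 (SE) on the log2 scale in Gl2-KD (edgeR adjusted p = 0.0245), and in Srrm2-KD it gave -0.55 ± 0.13 (SE) (edgeR adjusted p = 0.0879). No other gene of the further SRF targets or of the YAP, TAZ and TEAD list was called with time.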

How the data were processed

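PolyA RNA of 12 libraries (4 groups, 3 independent experiments each) was sequenced as 100-base paired reads from stranded libraries. The authors quantified reads with Kallisto 0.46.1 on GENCODE M24 transcripts (mm10) and deposited 1 table of estimated counts per gene. The way transcripts were summed per gene, and whether strand was used, are not given in the sources used here. Between 33.9% and 43.1% of the values in a library were not whole, and all were rounded. Symbols came from GENCODE M21 (GRCm38), which held 42156 of the 42450 gene identifiers, and the other 294 took 0.175% of the counts.

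Counts were filtered with filterByExpr (minimum count 10, minimum total 15), scaled by TMM and fitted over all 12 libraries with edgeR 4.0.16 (R 4.3.3, glmQLFit with legacy=TRUE, glmQLFTest), with 1 term per group and the experiment as a block. p-values were adjusted by Benjamini-Hochberg over the 19410 genes tested, and genes were called at an adjusted p below 0.05. The model of the authors had a covariate for the day of RNA processing. Which libraries shared a day is not stated in the labels, so the labels' experiment number took its place. It pairs the libraries, since the deviations from group means of the 18 same-numbered pairs correlated at 0.281 to 0.747, and those of the 36 other pairs at -0.628 to 0.231. Fold changes carry the SE of the fit. The smallest sums and levels are limited by depth, and a floor of 3 counts was 0.0185 to 0.0409 CPM per library.

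Values in every library were given for Srf, the actins, members called in the same direction in all 3 experiments, and the 5 members with the smallest p per comparison. The members and all lists were chosen with earlier results of these data known. Alternatives were DESeq2 1.42.0, limma-voom 3.58.1, other scalings and filters, other blocks, separate fits, and fits without each library or experiment in turn. Fits were tested on simulated counts. Exonic 31-base words, the word length of Kallisto's default index, were compared between genes. Identity between the actin proteins was not analysed here. Results of 1 further gene list are not reported here.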

Additional observations from a re-analysis of the deposited data

How the results depend on the processing

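Both the calls and the number of members below 0 depended on the fit. For the knockdown at 24 h and for the difference between the times, 0 members were called under every setting tried, while the members below 0 at 24 h ran from 19 to 33 and their median from -0.25 to -0.03. At 72 h, where the count reported is 0, DESeq2 called 2, glmQLFit with legacy=FALSE 1 (Acta1), a replicate block for every pair of libraries from 1 experiment and 1 time 3, and the 72 h libraries alone 3, while leaving out a library or experiment gave 0 to 1 (1, Tagln, without Srrm2-KD 24 h replicate 3). For the mean of both times, also 0, the same settings gave 3, 1 and 7, no filter gave 2, and leaving out gave 0 to 2 (2 without Srrm2-KD 24 h replicate 1 and 1 without experiment 1). With time in Gl2-KD, where 2 were called, DESeq2 gave 5, the fit with no replicate block 0, and leaving out 0 to 2. It was 0 without Gl2-KD 24 h replicate 1 or 2, Gl2-KD 72 h replicate 2 or experiment 2, and 1 without Gl2-KD 24 h or 72 h replicate 3. With time in Srrm2-KD, where 2 were called, DESeq2 gave 4, no replicate block 0, the Srrm2-KD libraries alone 0, and leaving out 0 to 2. There it was 0 without any 1 of the Gl2-KD 24 h, Srrm2-KD 24 h or Srrm2-KD 72 h libraries or without experiment 2, and 1 without Gl2-KD 72 h replicate 2 or experiment 3. Equal counts did not always hold the same genes, since Actg1 was called in both time comparisons without experiment 3 and Ahnak in both without experiment 1. The cause of these shifts was not tested, beyond the smaller number of libraries in the fits that leave some out. Ahnak2 kept its call in 19 of 24 settings in Gl2-KD (log2 fold changes 1.37 to 1.67) and in 10 of 24 in Srrm2-KD (0.91 to 1.25), and S100a10 in 14 of 24 (-0.68 to -0.46) and 10 of 24 (-0.74 to -0.58). Of 749 values of 31 single-gene results under other settings, 7 changed sign, all of Srf, and members outside these results changed sign too, for example Cnn1, Myl9, Fhl2 and S100a11 at 72 h when 1 experiment was left out. Leaving out libraries moved the Srf knockdown value from -0.36 to 0.10 at 24 h, from -0.31 to 0.02 at 72 h and the difference between the times from -0.23 to 0.22. At 24 h it was 0.10 without Gl2-KD 24 h replicate 2 and 0.01 without experiment 2, and at 72 h 0.02 without Srrm2-KD 72 h replicate 2. The difference between its effects at the 2 times was -0.23 without Gl2-KD 24 h replicate 2, -0.09 without Gl2-KD 72 h replicate 2, -0.15 without Srrm2-KD 72 h replicate 1 and -0.12 without experiment 2. Counts of members without each experiment in turn were chosen after seeing the data. Depth limits Acta2 and Egr2, with 0 counts in 1 library each, and Actc1, Acta1, Fhl2 and Fosl1, whose lowest counts were 1, 6, 6 and 17.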
